A study of Mus musculus with 16 samples.

Results

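The cells described here are interstitial stromal cells of the newborn mouse testis with transcripts of *Lum*, *Dpt* and *Aspn*. They were chosen by their own transcript counts, in unique molecular identifiers (UMIs, each standing for 1 captured transcript). A member held at least 3 UMIs of *Lum*, *Dpt* and *Aspn* together, at most 2 of *Tbata*, *Cyp26b1* and *Smoc2* together, at most 2 of *Amh*, at most 1 of *Myh11* and at most 1 of *Mki67* and *Top2a* together. Cells were kept if 2000 or more genes were found and no more than 10% of UMIs were mitochondrial. Of the 11279 kept cells, 258 were members, 139 of 6329 in the wild-type library and 119 of 4950 in the library labelled *Ddx5* knockout.

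Whole testes of postnatal day 2 mice were dissociated with TrypLE and single cells were captured for droplet 3′ RNA sequencing. The knockout label stands for mice in which *Mvh*-Cre, which is driven by a germ cell promoter, deletes floxed *Ddx5* (an RNA helicase gene). The stromal cells are therefore not the cells in which the Cre is meant to act. GFP under the *Oct4* promoter marks germ cells in the study's mice, and GFP transcripts were found in both libraries. The files do not state which barcode suffix belongs to which genotype, and the assignment was taken from the rule that chose the cells. The labels number 8 libraries per genotype, but the cell barcodes carry only 1 suffix per genotype, so each genotype was 1 sample and no difference between genotypes was tested. The number of pooled animals is not given in the sources used here.

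Stromal cells of the testis interstitium lie between the seminiferous tubules, lay down the extracellular matrix around them and include the precursors of Leydig cells, the steroid-producing cells of the testis. *Lum* (lumican), *Aspn* (asporin) and *Dcn* (decorin) encode small leucine-rich proteoglycans that bind collagen fibrils. *Dpt* encodes dermatopontin, a matrix protein that binds decorin, and *Dlk1* is an imprinted gene for a Notch-like membrane protein of immature mesenchyme.

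Members were shallower than the rest. Their median was 7486 UMIs per cell in the wild-type library and 7983 in the library labelled knockout, against 11276 and 11812 in all other kept cells. Their summed UMIs were 1070019 and 993575, and all levels below are summed UMIs scaled to a total of 1000000 (CPM). Intervals are 95% and cover counting error only, not the differences between animals. The libraries shared 12 barcode sequences, 1 of which was carried by a member, and no sequence was a member in both.

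*Ddx5* was at 597 CPM (552 to 645) in wild-type members and 498 CPM (455 to 544) in members of the library labelled knockout. The deletion could not be checked by *Ddx5* counts in its target cells. In cells with 10 or more UMIs of germ cell markers, *Ddx5* stood at 1158 CPM in 117 wild-type cells. It stood at 1736 CPM in 12 cells of the library labelled knockout, which goes against the label. Whether the counted 3′ end lies inside the deleted part is not given in the sources used here. The paper reports lower *Ddx5* mRNA by single-cell qRT-PCR in *Oct4*-GFP cells of knockout testes at the same age. It also reports a smaller share of germ cells in knockout testes, the direction of the 117 and 12 cells here. GFP and CRE, both added to the reference by the authors, had 0 UMIs in the members of each library. Over all kept cells CRE had 0 UMIs in the wild-type library and 20 in the library labelled knockout, which goes with the label, and GFP had 456 and 22.

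The rule cut a continuous range of cells rather than a separate group. Of wild-type kept cells, 1499 (23.7%) held 3 or more *Lum*+*Dpt*+*Aspn* UMIs, and 1100 of these also met the limits on *Amh*, *Myh11* and the cycling genes. The limit on *Tbata*+*Cyp26b1*+*Smoc2* then removed 961 and left the 139 members, 12.6% (10.7 to 14.7%, exact Clopper-Pearson). In the library labelled knockout 1523 cells (30.8%) passed the first step, 1075 the next limits and 119 (11.1%, 9.26 to 13.1%) the last. The 961 and 956 cells that failed only this limit are called double-marker cells below.

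Counts of cells by *Tbata*+*Cyp26b1*+*Smoc2* UMIs showed no gap at the limit. In the wild-type library 37, 45 and 57 members had 0, 1 and 2 such UMIs, and 71 and 87 double-marker cells had 3 and 4. In the library labelled knockout the corresponding counts were 24, 49, 46, 71 and 69. *Smoc2*, which encodes a matricellular calcium-binding protein, made up most of what members held of this set, with 151 of 159 UMIs in the wild-type library and 136 of 141 in the other. Double-marker cells of 5000 or more UMIs were thinned to 5000. Of these, 183 of 946 (19.3%) and 180 of 943 (19.1%) also fell to 2 or fewer UMIs, so depth bears on who is a member.

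**Figure D1:**
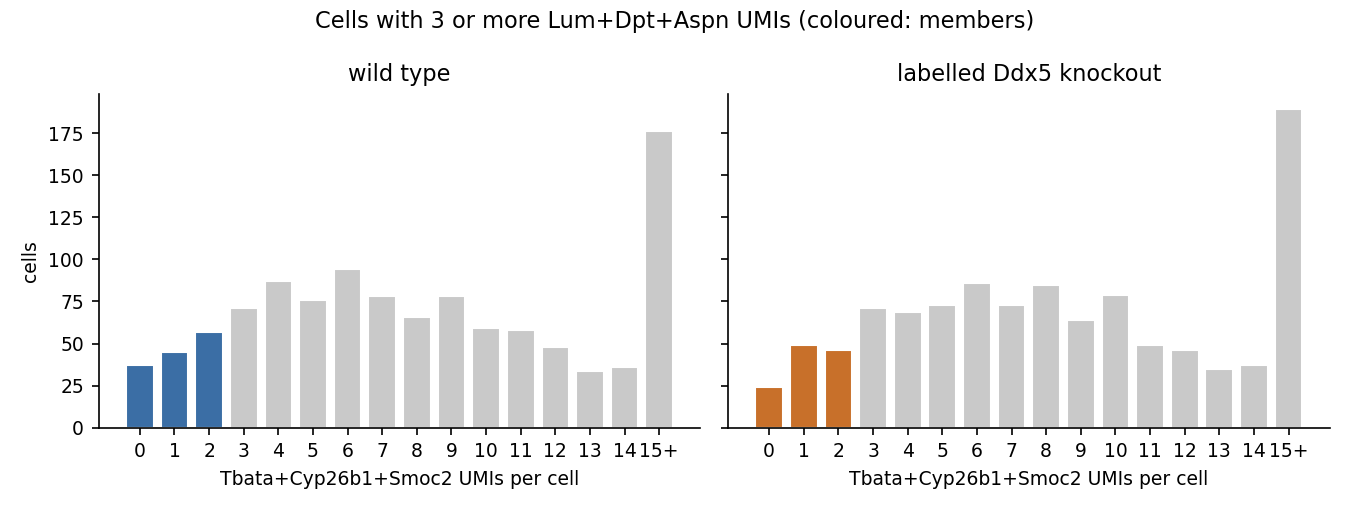
Cells with 3 or more *Lum*+*Dpt*+*Aspn* UMIs that met the limits on *Amh*, *Myh11*, *Mki67* and *Top2a*, by their *Tbata*+*Cyp26b1*+*Smoc2* UMIs (x axis; the last bar holds 15 or more), as number of cells (y axis) in each library. The coloured bars are the 139 and 119 members, which form the low end of a range without a gap.

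The share of members was 2.20% (1.85 to 2.59%) of wild-type kept cells and 2.40% (2.00 to 2.87%) of those of the library labelled knockout, a ratio of 1.09 (0.85 to 1.41). This ratio depended on the limit and on depth. Double-marker cells made up 15.2% and 19.3% (ratio 1.27, 1.16 to 1.39), and all cells at 3 or more *Lum*+*Dpt*+*Aspn* UMIs gave 1.30 (1.21 to 1.40). The 6232 and 4882 kept cells of 5000 or more UMIs were also thinned to 5000 before the rule was applied. Of these, members were 3.95% and 4.94%, a ratio of 1.25 (1.04 to 1.5).

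Among members, *Dcn* was found in every cell of both libraries, with a median of 33 UMIs per wild-type cell (1 to 90) and 30 (2 to 130) in the other library. *Dlk1* was found in 138 of 139 and 118 of 119 members. *Lum* was found in 69.8% and 74.8%, *Dpt* in 79.1% and 80.7%, and *Aspn* in 48.9% and 56.3%. All of *Lum*, *Dpt* and *Aspn* were found together in 20.9% and 31.9% of members. After thinning to 5000 UMIs, which left out 9 and 7 shallower members, a *Lum* UMI was in 66.2% and 69.6% of members, and in 1.39% and 4.27% of *Amh* cells, a Sertoli type that should lack these genes (median depths 11921.5 and 13531.5 UMIs unthinned). In *Amh* cells thinned alike, *Dcn* was in 14.2% and 19.5% and *Dlk1* in 16.4% and 16.7%, against 99.1% or more of members for each.

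*Dcn* and *Dlk1* were no part of the rule, although they came from the same cells. Over cells that met every other limit, *Dcn* stood at 251 CPM in wild-type cells with 0 *Lum*+*Dpt*+*Aspn* UMIs, 2667 just outside the threshold at 2 UMIs (27 cells), 3758 just inside it at 3 (20 cells) and 5185 at 10 or more (42 cells). In the library labelled knockout the values were 326, 3150 (24 cells), 4192 (19 cells) and 4912 (42 cells). The cells without these UMIs included other cell types, with *Cyp11a1* at 5013 and 5320 CPM, against 5.23 and 11.1 CPM in the cells just outside the threshold. *Dlk1* showed no step at the threshold in the wild-type library, with 3258 CPM (3007 to 3524) just outside and 3360 (3056 to 3686) just inside. In the library labelled knockout it was at 1994 CPM just outside and 3376 just inside. It was then at 2498 CPM at 4 to 5 UMIs, 2632 at 6 to 9 and 2999 at 10 or more, so the levels were uneven. In the wild-type library *Dlk1* was at 4052 CPM at 4 to 5 UMIs and 3183 at 6 to 9.

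Markers of Sertoli, Leydig, germ and immune cells were lower in members than in other kept cells, and the part of any marker list in the results was not tested. The 10 Sertoli markers summed to 216 and 98.6 CPM in members, against 5710 and 5050 in other kept cells, and 1 wild-type member held 114 of the 231 Sertoli UMIs. The 8 Leydig markers summed to 146 and 121 CPM, against 1056 and 1271, and *Cyp17a1* and *Star* were at 0 in wild-type members. The 8 macrophage markers summed to 8.41 and 1.01 CPM with 5 and 7 of them at 0, and the 7 surface epithelial markers to 1.87 and 0 CPM. The 7 peritubular myoid markers summed to 776 and 672 CPM in members and to 955 and 851 in other kept cells, and 7 pericyte markers reached 85.0 and 104 CPM against 67.7 and 61.5, mostly from *Cspg4* (50.5 and 54.3 CPM) and *Notch3* (29.9 and 41.3 CPM), with *Rgs5* at 0 in both libraries. The 8 endothelial markers summed to 131 and 137 CPM against 89.2 and 91.7. *Cdh5* alone held 107 and 117 CPM of these sums, while *Pecam1* had 1 UMI in each library and *Tie1* and *Esam* were at 0. The 5 Schwann cell markers summed to 58.9 and 56.4 CPM against 96.2 and 106, with *Sox10* at 0. The 4 rete markers summed to 3.74 and 6.04 CPM against 15 and 2.55. The 8 germ cell markers summed to 12.1 and 5.03 CPM and the 4 neutrophil markers to 0.935 and 1.01 CPM. The 6 erythroid markers stood at 3.74 CPM in wild-type members and 156 in the other library, where 1 cell held 117 of 155 UMIs.

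Against all other kept cells, matrix genes stood out among the genes higher in members. A gene was counted as higher or lower when its log2 ratio, with 10 CPM added to both levels, reached 1 in the same direction in both libraries. Of 17149 genes with at least 20 UMIs in each library, 231 (1.35%) were higher in members and 609 (3.55%) lower. The members were chosen on these cells, so the ratios are a description, and this and the later counts include the rule's own genes. The median log2 ratio over all genes was -0.06 in both libraries.

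Of the 9 fibrillar collagen genes measured, 6 were higher and 0 lower, with a median log2 ratio of 1.40 in the wild-type library and 1.24 in the other. *Col3a1*, a collagen of soft interstitial tissue, was at 4071 CPM in wild-type members and 1243 in other cells, 3.28-fold higher (3.18 to 3.38), and 3.01-fold higher (2.91 to 3.1) in the library labelled knockout. *Col1a1*, the main fibrillar collagen chain, was 3.08-fold and 2.95-fold higher. *Col27a1* was 4.44-fold (3.50 to 5.55) and 5.14-fold (4.15 to 6.31) higher. Of 20 other collagens, 5 were higher, among them all 3 of *Col6a1*, *Col6a2* and *Col6a3*, whose chains form microfibrils. *Col18a1*, of basement membranes, was the only one lower, at 19.6 and 9.06 CPM against 116 and 112.

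Of 28 genes of elastic fibres, microfibrils and linked matrix proteins, 12 were higher and 0 lower, with medians of 0.96 and 0.86. *Postn*, which encodes the fibroblast matrix protein periostin, was at 96.3 CPM in wild-type members against 15.2, and at 92.6 against 17.7 in the other library, 6.35-fold (5.14 to 7.77) and 5.24-fold (4.19 to 6.49) higher. The lysyl oxidase gene *Loxl1*, which acts on elastin, was 4.45-fold and 3.80-fold higher. *Eln* (elastin) was 3.13-fold and 2.66-fold higher, and *Fbln1* 3.45-fold and 2.91-fold. Among 9 other small leucine-rich proteoglycan genes, *Dcn* (3.79-fold and 2.95-fold) and *Ogn* (3.22-fold and 2.41-fold) were higher and 0 were lower. Of 26 matrix proteases and inhibitors, *Mmp16* and *Timp2* were higher.

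Genes for secreted signals were higher in several lists. *Igfbp3*, which encodes a carrier protein of insulin-like growth factors, had the largest ratio of the genes named, at 136 CPM against 14.4 in the wild-type library (9.39-fold, 7.85 to 11.2) and 108 against 17.3 in the other (6.22-fold, 5.05 to 7.59). *Igf1* was 2.40-fold and 2.31-fold higher, and the other 8 genes of the IGF list did not reach 2-fold in both libraries. *Ptn* (pleiotrophin, a heparin-binding growth factor) was at 1685 and 1894 CPM against 354 and 442. *Tgfb2* was 5.22-fold and 4.36-fold higher, *Vegfd* 4.48-fold and 4.64-fold, and the chemokine gene *Cxcl12* 3.01-fold and 2.58-fold.

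Of 22 Wnt pathway genes, 4 were higher and 0 lower. The ligand genes were *Wnt4* (3.80-fold and 3.29-fold) and *Wnt5a* (2.27-fold and 2.17-fold), and the genes of secreted Wnt binders were *Sfrp1* (2.35-fold and 2.84-fold) and *Sfrp2* (4.86-fold and 4.49-fold). The receptor gene *Epha3* was 6.67-fold and 5.32-fold higher, *Ifitm1* 4.95-fold and 4.01-fold, *Hmcn1* 4.52-fold and 4.15-fold, and *Adgrb3* 5.07-fold and 5.18-fold. Of 25 genes for chemokines, cytokines and niche ligands, 5 were higher and 3 lower. The lower ones were *Kitl* and *Gdnf*, both ligands for germ cells, and *Sema3c*. *Gdnf* had 0 UMIs in members, at least 6.78-fold and 6.12-fold lower against a floor of 3 UMIs per library.

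Transcription factors of the interstitium were partly shared with other cells. Of 28, 5 were higher, among them *Lhx9*, *Osr1*, *Twist1* and *Meis2*, and *Wt1* and *Gata6* were lower. *Lhx9*, a LIM homeobox gene of the early gonad, was at 394 and 358 CPM against 109 and 130. *Nr2f2* (625 and 796 CPM against 370 and 475) and *Tcf21* (258 and 347 against 150 and 187) had log2 ratios of 0.73 to 0.86, short of the threshold. *Pdgfra*, a receptor gene of mesenchymal cells, was at 340 and 428 CPM against 196 and 225. The hedgehog target *Gli1* was 1.94-fold and 1.95-fold higher, whereas its co-target *Ptch1* was at 150 and 205 CPM against 184 and 207.

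Of 25 imprinted genes, 6 were higher and 1 lower, with medians of 0.58 and 0.60. *Meg3*, *Rian* and *Mirg*, noncoding RNAs of the *Dlk1* cluster, were 3.27-fold and 3.07-fold, 3.00-fold and 2.95-fold, and 3.4-fold and 3.39-fold higher. *Dlk1* itself was 3.62-fold and 3.09-fold higher. *H19*, which is imprinted elsewhere, was at 203 and 225 CPM against 179 and 167.

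The genes lowest in members were those of Sertoli and Leydig cells. *Defb19* was at 26.2 and 18.1 CPM against 938 and 793, and *Rhox8* at 8.41 and 4.03 against 437 and 317. *Clu* was at 44.9 and 22.1 CPM against 1080 and 929. *Cyp11a1*, which makes pregnenolone from cholesterol, was at 7.48 and 1.01 CPM against 394 and 470. *Cyp17a1*, a later steroidogenic enzyme, had 0 UMIs in wild-type members, at least 65.2-fold lower against the floor. *Tesc*, *Ptgds* and *Cst12* were also at 31.8 CPM or less in members of both libraries. Of the lists not named above, complement genes had 3 higher and 1 lower of 10, adventitial-type fibroblast genes 2 and 3 of 17, TGF-beta and activin genes 2 and 2 of 25, hedgehog genes 1 and 1 of 11, growth factor receptor genes 1 and 2 of 16, retinoid genes 0 and 2 of 14, immediate early genes 1 and 1 of 24, and heat shock genes 1 and 1 of 15.

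**Figure D2:**
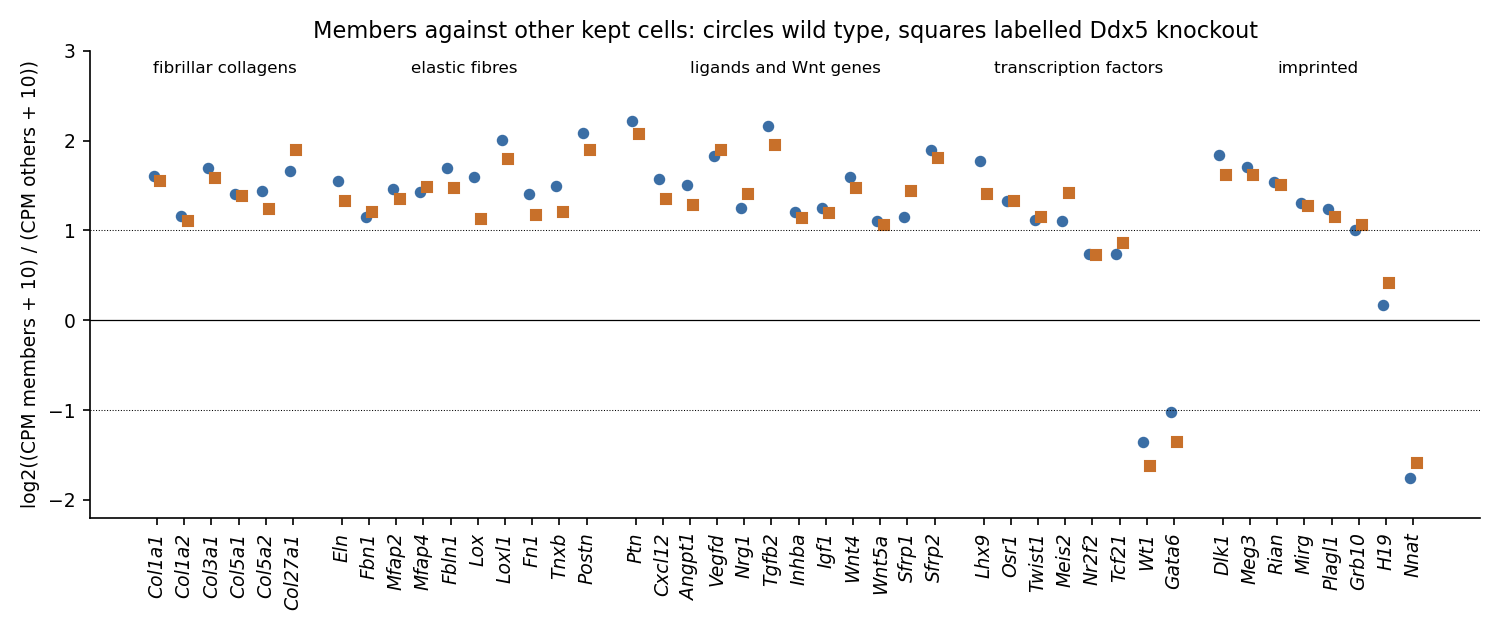
Log2 ratio of level, with 10 CPM added, of members against other kept cells (y axis) for named genes of 5 groups (x axis), circles for the wild-type library and squares for the library labelled knockout. The dotted lines mark a log2 ratio of 1 and -1. The 6 fibrillar collagen genes lie between 1.10 and 1.90, and *Wt1*, *Gata6* and *Nnat* lie below -1.

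Against cells with 3 or more *Tbata*+*Cyp26b1*+*Smoc2* UMIs and at most 2 of *Lum*+*Dpt*+*Aspn* (1135 and 932 cells), 97 of 12573 genes (0.771%) were higher in members and 111 (0.883%) lower. With CPM taken outside ribosomal protein and mitochondrial genes, 92 were higher and 167 lower, 35.5% higher in place of 46.6%. *Postn* was at 96.3 and 92.6 CPM against 8.89 and 5.91, 10.8-fold (8.14 to 14.4) and 15.7-fold (11.1 to 22.3) higher. *Epha3* was 6.75-fold and 6.99-fold higher, *Igfbp3* 11.0-fold and 5.11-fold, *Gabrb1* 14.4-fold and 6.56-fold, and *Crip1* 4.39-fold and 4.91-fold. Elastic fibre genes had 7 of 25 higher and 0 lower, and fibrillar collagens 2 of 8 (*Col3a1* and *Col27a1*). *Pdgfra* (340 and 428 CPM against 403 and 405) and *H19* (203 and 225 against 324 and 278) were not past 2-fold. *Hhip*, which binds hedgehog ligands, was lower, at 39.3 and 25.2 CPM against 154 and 160.

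That comparison set also held cells with Leydig transcripts. *Cyp11a1* was at 838 and 1357 CPM in it, and 7 of the 10 genes lowest in members were *Cyp17a1*, *Cyp11a1*, *Hsd3b1*, *Insl3*, *Star*, *Ren1* and *Aldh1a1*. Without its cells of more than 5 UMIs of *Cyp17a1*, *Cyp11a1* and *Hsd3b1*, a choice made after the values were seen, 80 genes were higher and 74 lower of 12176. *Postn* (9.90-fold and 13.7-fold), *Epha3* (6.17-fold and 6.16-fold) and *Igfbp3* (13.0-fold and 4.95-fold) still led the higher genes. Elastic fibre genes then had 5 of 25 higher, and fibrillar collagens 1 of 8, *Col27a1*. *Col3a1*, *Loxl2* and *Fn1* were no longer past 2-fold in both libraries. Neither were *Dcn* and *Dlk1*, which were higher against the whole set. Among the lower genes were then *Fbxo32* (3.74 and 3.02 CPM against 72.0 and 95.2), *Col4a4* and *Sema3c*.

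Against the double-marker cells, which differ by the rule only in *Tbata*, *Cyp26b1* and *Smoc2*, few genes differed. This comparison was added after the data were seen. Of 12152 genes, 3 (0.0247%) were higher in members and 14 (0.115%) lower. The higher ones were *Igfbp3* (4.68-fold, 3.80 to 5.75, and 2.69-fold, 2.15 to 3.34), *Tagln* (2.54-fold and 2.45-fold) and *Wnt4* (2.50-fold and 2.49-fold). *Acta2*, the smooth muscle actin gene, was at 431 and 344 CPM against 201 and 171, with log2 ratios of 1.06 and 0.97. *Smoc2*, which the rule limits, was at 141 and 137 CPM against 896 and 950.

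Of the 14 lower genes, 3 were the rule's *Tbata*, *Cyp26b1* and *Smoc2*, and the Leydig genes *Cyp11a1* and *Hsd3b1* led the others. The Leydig markers summed to 373 and 440 CPM in double-marker cells against 146 and 121 in members, and 1 wild-type double-marker cell held 1164 of 3481 such UMIs. Their part in the other differences was not tested. Also lower were *Hhip* (39.3 and 25.2 CPM against 115 and 114), *Sema3c* (0.346 and 0.371 of the level in double-marker cells), *Sct* (92.5 and 69.4 against 203 and 188) and *Aldh1a1* (0.389 and 0.0671 of that level). *Dcn* (1.03-fold and 0.955-fold), *Dlk1* (1.03-fold and 1.01-fold), *Col3a1* (0.981-fold and 1.08-fold) and *Meg3* (0.988-fold and 1.05-fold) were at nearly the same level. *Postn*, which led the higher genes against the *Tbata*/*Cyp26b1*/*Smoc2* set, did not set members apart from double-marker cells. With cells thinned to the same depth, it was found in 22.3% of wild-type members and 22.2% of wild-type double-marker cells. In the library labelled knockout the shares were 20.5% and 19.2%. Of the rule's own genes, which are a description only, *Lum* was 1.97-fold and 1.6-fold, *Dpt* 1.08-fold and 1.06-fold and *Aspn* 0.854-fold and 0.723-fold the level in double-marker cells. The collagen, elastic fibre, proteoglycan and transcription factor lists had 0 genes past 2-fold, which at so low a share over all genes is no result about these lists.

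**Figure D3:**
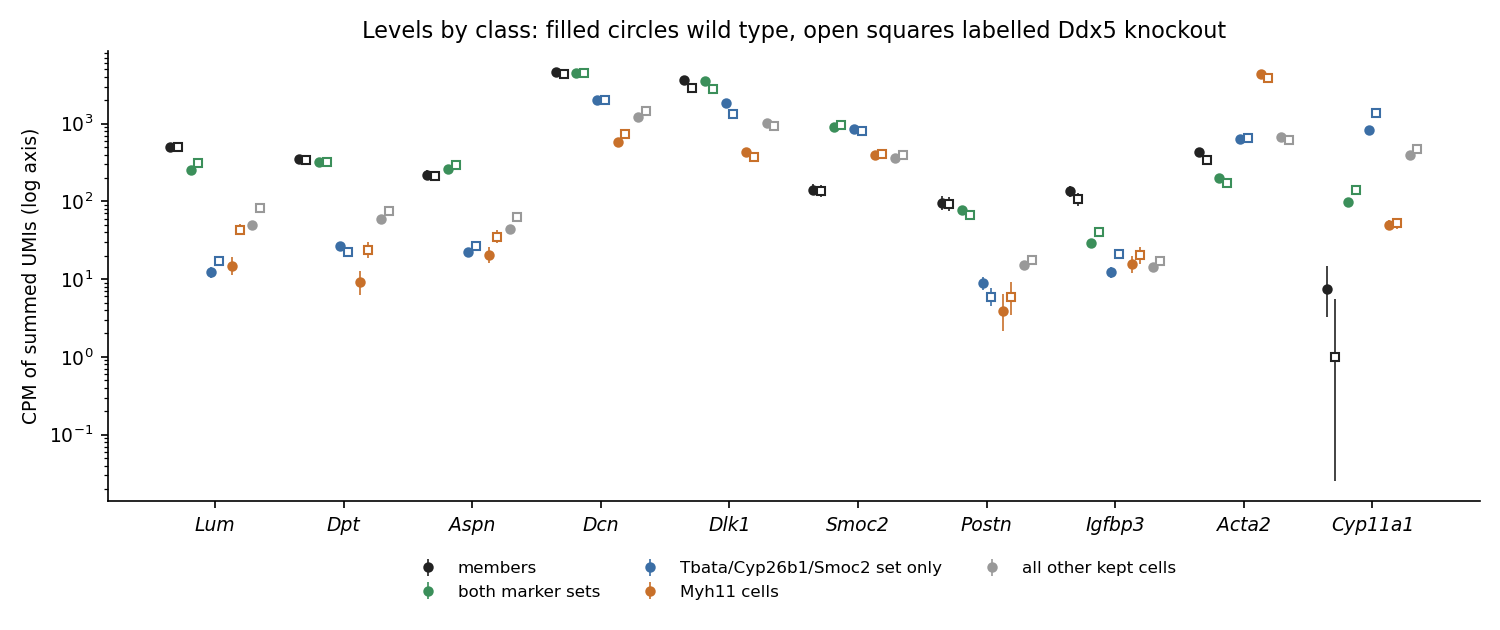
Level of 10 genes (CPM of summed UMIs, log axis) in members, double-marker cells, cells of the *Tbata*/*Cyp26b1*/*Smoc2* set only, *Myh11* cells and all other kept cells, with filled circles for the wild-type library, open squares for the library labelled knockout and bars for 95% Poisson intervals. *Dcn* and *Dlk1* are alike in members and double-marker cells, whereas *Igfbp3* is highest in members, at 136 and 108 CPM.

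Against cells with 3 or more *Myh11* UMIs (353 and 255 cells, of the peritubular myoid type that ensheathes the tubules), 272 of 10346 genes (2.63%) were higher in members and 232 (2.24%) lower. Which direction held more genes depended on the setting, with 275 higher and 312 lower when ribosomal protein and mitochondrial genes were left out of the CPM, and 159 and 179 with at least 100 UMIs. *Maob*, which encodes a monoamine oxidase, was at 236 CPM in wild-type members and 19.8-fold higher (14.4 to 27.7), and 13.3-fold higher (10.2 to 17.6) in the other library. *Ptn* was 9.40-fold and 9.77-fold higher, *Agtr2* (an angiotensin receptor gene) 13.3-fold and 14.2-fold, *Dlk1* 8.36-fold and 7.78-fold, and *Postn* 24.7-fold and 15.8-fold. *Cd44*, a hyaluronan receptor gene, was at 84.1 and 112 CPM against 4.68 and 5.22.

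*Acta2* was lower in members, at 431 and 344 CPM against 4400 and 3850, and *Tagln* at 156 and 146 against 1196 and 1051. *Des*, listed as a myoid marker, went the other way, at 181 and 175 CPM in members and 88.6 and 58.8 in *Myh11* cells. *Mgp* was 11.8-fold and 11.0-fold lower, *Col4a4* 16.3-fold and 35.4-fold, and *Tmem100* 22.9-fold and 33.3-fold. Fibrillar collagens had 5 of 8 higher and 0 lower, and the other collagens 1 higher and 4 lower of 17, the lower ones including *Col4a1* and *Col4a2* of the basement membrane. Of 26 transcription factors 9 were higher, among them *Lhx9* and *Wt1*, and 4 lower, *Osr2*, *Prrx1*, *Heyl* and *Esr1*.

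Members varied among themselves in which of the rule's genes led. A member was called led by *Lum*, *Dpt* or *Aspn* when that gene held more than 50% of the 3 genes' UMIs. In the wild-type library 60 were *Lum*-led, 38 *Dpt*-led, 26 *Aspn*-led and 15 led by none. In the library labelled knockout the counts were 47, 35, 14 and 23. The *Aspn*-led share was 18.7% (12.6 to 26.2%) and 11.8% (6.58 to 19%), intervals that overlap. Median depths were 7751.5, 7109.5 and 6983 UMIs in the first library and 9404, 7603 and 7468 in the second, so *Lum*-led members were the deepest.

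Several genes outside the rule differed in level by leading gene. *Acta2* was at 563 CPM (498 to 634) in *Lum*-led and 171 (125 to 228) in *Dpt*-led wild-type members, and at 582 (511 to 659) and 176 (130 to 234) in the other library. *Gas6*, a ligand of TAM receptors, was at 288 and 337 CPM in *Lum*-led members, against 48.2 and 117 in *Dpt*-led and 93.4 and 103 in *Aspn*-led members. *Igfbp3* was at 271 and 165 CPM in *Lum*-led, 14.8 and 69.7 in *Dpt*-led and 15.6 and 37.6 in *Aspn*-led members. *Fbln5*, of elastic fibres, was at 159 and 120 CPM in *Lum*-led and 48.2 and 33.0 in *Dpt*-led members. *Wnt5a* was at 302 and 353 CPM in *Lum*-led and 119 and 141 in *Aspn*-led members.

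*Nrp1*, a semaphorin and VEGF co-receptor gene, had the reverse pattern, at 74.5 and 21.2 CPM in *Lum*-led, 163 and 117 in *Dpt*-led and 166 and 160 in *Aspn*-led members. *Sema3c* was 3.90-fold (1.57 to 10.2) and 3.00-fold (1.11 to 7.74) higher in *Aspn*-led than in *Lum*-led members. Of 4923 genes, 3 (0.0609%) were higher and 22 (0.447%) lower in *Dpt*-led than in *Lum*-led members, and of 4207 genes 7 (0.166%) were higher and 13 (0.309%) lower in *Aspn*-led members. These counts include the genes that define the split, *Dpt* or *Aspn* among the higher and *Lum* among the lower. Another 2 and 7 genes were past 2-fold in opposite directions in the libraries, as many as were higher in *Aspn*-led members. *Aspn*-led sums came from only 26 and 14 cells. *Acta2* in them was at 400 CPM in the wild-type library and 169 in the other, so its place between the classes was not the same in both libraries.

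**Figure D4:**
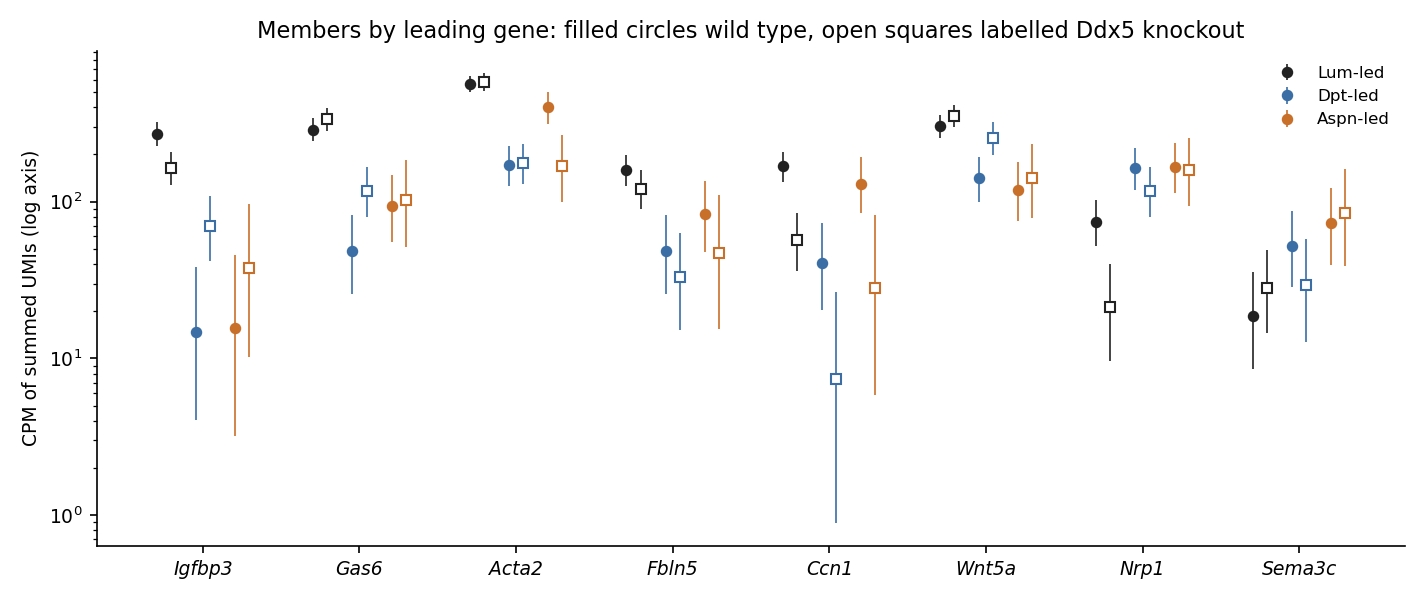
Level of 8 genes (CPM of summed UMIs, log axis) in *Lum*-led, *Dpt*-led and *Aspn*-led members, with filled circles for the wild-type library, open squares for the library labelled knockout and bars for 95% Poisson intervals. *Igfbp3* and *Gas6* are highest in *Lum*-led members of both libraries, and *Nrp1* is lowest there.

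*Igfbp3* was found in 25.9% of wild-type members and 37.8% of members of the library labelled knockout (36 and 45 cells). Thinned to 5000 UMIs, the shares were 20% (13.5 to 27.9%) and 30.4% (22.0 to 39.8%) of members and 3.28% and 3.29% of *Amh* cells. A cell without an *Igfbp3* UMI may still express the gene. A split by this gene was made after its values were seen and is a description. Members with an *Igfbp3* UMI held more *Fbln5* (205 and 125 CPM against 66.0 and 42.7) and *Gas6* (340 and 323 against 107 and 138). They held less *Nrp1* (60.6 and 28.6 CPM against 137 and 116), *Col4a2* (101 and 102 against 246 and 254) and *Gli1* (23.6 and 26.0 against 59.5 and 75.5). These were picked from few. Of 6160 genes, only 10 were higher, *Igfbp3* itself among them, and 10 lower in both libraries. Another 2 were past 2-fold in opposite directions in the libraries.

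Between the libraries, the levels of *Lum*, *Dpt* and *Aspn* in members are a description only, since the rule set their minimum in both. *Lum* was at 503 CPM (461 to 547) in wild-type members and 494 (451 to 540) in the other library, *Dpt* at 348 and 341, and *Aspn* at 221 and 210. *Dcn* was at 4590 and 4314 CPM, a ratio of 0.94 (0.902 to 0.979). *Dlk1* was at 3656 (3542 to 3772) and 2859 (2755 to 2966), a ratio of 0.782 (0.745 to 0.821), and in other kept cells its ratio was 0.916. The median log2 ratio was 0.05 over 8 fibrillar collagen genes and 0.00 over 25 elastic fibre genes.

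Of the 8816 genes that reached 20 UMIs when members of both libraries were added up, 8 (0.0907%) were higher past 2-fold in the library labelled knockout and 24 (0.272%) lower. With 1 library per genotype these are differences between 2 libraries, in which genotype, animals and handling cannot be told apart. Immediate early genes, which respond within minutes to stimuli and to tissue dissociation, were the list with most differences. Of 21, 20 had a log2 ratio below 0 and 3 were past 2-fold (*Fos*, *Fosb* and *Ccn1*), with a median of -0.63. Their median in other kept cells was -0.40, so the same list was lower there too.

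*Fosb* was at 79.4 CPM in wild-type members, found in 33 of 139 cells, and at 7.05 CPM in 3 of 119 cells of the other library, a ratio of 0.0887 (0.0346 to 0.191), with 0.245 in other kept cells. *Fos* was at 119 and 50.3 CPM (ratio 0.424) and 0.496 in other cells. *Ccn1*, a matricellular gene of the same list, was at 116 and 31.2 CPM (0.269, 0.175 to 0.402) and 0.562 in other cells. *Cavin2*, of caveolae, was at 61.7 and 19.1 CPM (0.31) and 0.345 in other cells.

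The differences of *Med31*, a Mediator subunit gene, and *Amotl2* were seen in members and not to the same size in other cells. *Med31* was found in 47 wild-type members and 8 of the other library, at 52.3 and 9.06 CPM (0.173, 0.0753 to 0.353), with 0.899 in other kept cells. *Amotl2* was found in 49 and 9 members, at 53.3 and 11.1 CPM (0.208, 0.0983 to 0.400), with 0.854 in other kept cells. In double-marker cells these ratios were 0.834 and 0.538. *Aldh1a1*, which makes retinoic acid, was at 28.0 and 4.03 CPM (0.144, 0.0368 to 0.407), from 30 and 4 UMIs, with 0.975 in other cells. Whether these ratios differ between members and other cells was not tested.

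The named genes on the higher side included 3 past 2-fold with 10 CPM added, *Dlgap1* (29.0 and 69.4 CPM, ratio 2.40, 1.55 to 3.79), *Tmem86a* (27.1 and 64.4, 2.38) and *Arhgap31* (27.1 and 64.4, 2.38). The other 5 named did not reach that threshold, among them *Sorbs2* (33.6 and 72.5, 2.15) and *Rreb1* (14.0 and 37.2, 2.66). From *Dlgap1* to *Rreb1*, the ratios in other kept cells lay between 1.01 and 1.23. *Zfp503*, a zinc finger gene, was at 94.4 and 172 CPM (1.82, 1.42 to 2.36), in 46.0% and 64.7% of members, with 1.52 in other cells. *Rprm* and *E030026E10Rik* had ratios of 2.58 and 2.36.

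Single cells held several of the other differences. For *Hmox1*, the stress-induced haem oxygenase gene, 1 wild-type member held 91 of 106 UMIs, and the ratio of 0.142 became 0.79 (0.328 to 1.84) without the highest cell of each library. For *Hspa1a*, a heat shock gene, 1 wild-type member held 47 of 89 UMIs and the ratio moved from 0.206 to 0.387. For *Hspb1* it was 54 of 77, and for *Ifi203* 33 of 49. The haemoglobin gene *Hba-a1* had 1 UMI in wild-type members and 63 in the other library, 53 of them in 1 cell.

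**Figure D5:**
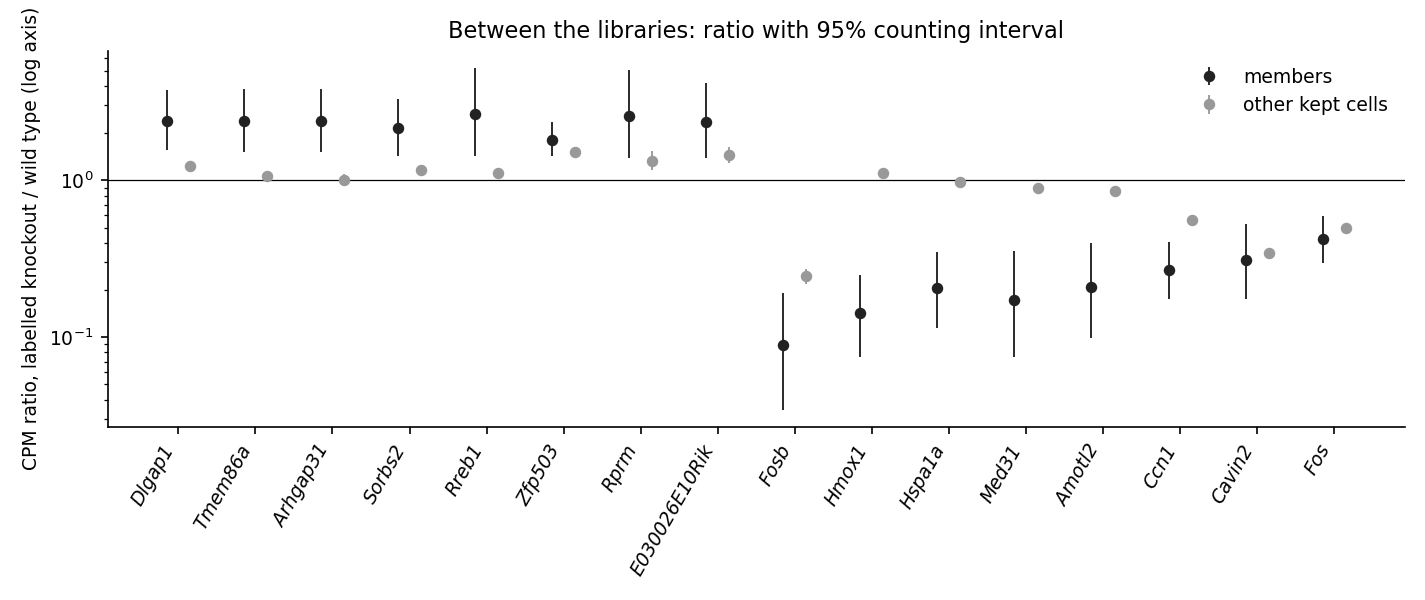
Ratio of CPM in the library labelled knockout over the wild-type library (log axis, line at 1) for 16 genes, 8 per direction, whose interval's nearer bound lay farthest from 1 among genes of 50 or more UMIs found in 10% or more of a library's members, in members (black) and in other kept cells (grey), with 95% counting intervals. *Fosb*, *Cavin2* and *Fos* are below 1 in both kinds of cells, whereas *Med31* and *Amotl2* are at 0.173 and 0.208 in members and 0.899 and 0.854 in other cells.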

How the data were processed

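The authors counted UMIs per gene and cell with Cell Ranger 3.1.0 on a reference extended by GFP and CRE. They deposited 1 table of raw counts (30451 genes, 12186 barcodes) for both genotypes. The submitters' processing notes name the build GRCm38 and Seurat 3.1.5. Deposited counts were used without normalization. The genotype was assigned from the barcode suffix by the rule that chose the cells, and the table does not state it. Cells were kept if 2000 or more genes were found and no more than 10% of UMIs were mitochondrial. No doublet caller was run. Doublets were limited only through the marker limits of the rule. Leaving out cells above 3 times the median UMIs was an alternative, not the main setting. It left 139 and 119 members, as in the main setting, so it removed no member.

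UMIs were summed per class and library and scaled to CPM with Python 3.11.15, NumPy 2.4.6 and SciPy 1.17.1. Ratios have exact conditional binomial intervals, sums exact Poisson intervals and shares exact Clopper-Pearson intervals at 95%. No test was made, since each genotype was 1 library. The comparison was run on simulated sums with planted changes, drawn as independent Poisson counts. These hold no differences between single cells, so they cannot show how it behaves where 1 cell holds most UMIs. Alternatives changed the pseudocount, the scaling, the count minimum, the marker threshold, the weight of cells and the depth.

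The members and gene lists were chosen with earlier results of these data known. Named genes were the rule's and marker genes, the 12 highest and 8 lowest against other cells (10 and 10 against other classes, 6 and 6 by leading gene) by the smaller log2 ratio of both libraries at 50 CPM or more, the 8 per direction between libraries ranked by how far the interval's nearer bound lay from 1 (among genes of 50 or more UMIs found in 10% or more of a library's members), and examples from each list. Genes outside this rule, *Aldh1a1* between the libraries and those held by single cells among them, were named after their values were seen. Some genes are not reported here.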

Additional observations from a re-analysis of the deposited data

Results flagged for a closer look

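Outside the cell filter, 16 of 434 wild-type barcodes and 7 of 473 barcodes of the library labelled knockout met every UMI limit of the rule. That was 3.69% (2.12 to 5.92%) and 1.48% (0.597 to 3.03%), and all 16 and 6 of the 7 had fewer than 2000 genes. These barcodes entered no comparison.

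*Hmox1* had opposite directions in the libraries. Against *Myh11* cells its log2 ratio was 1.71 in the wild-type library and -1.75 in the library labelled knockout, and against double-marker cells it was 1.54 and -1.21. The difference was not tested, and 1 wild-type member held 91 of the 106 *Hmox1* UMIs.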

How the results depend on the processing

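No paired analysis was possible because the barcodes carry no replicate number, and leaving out a replicate was not possible with 1 library per genotype. No value past 2-fold changed sign under the alternatives of pseudocount, scaling, count minimum, cell weight, marker threshold, high-UMI cells and depth. Double-marker cells are a different comparison group, added after the data were seen, and not another processing. Against them, values past 2-fold against other kept cells could come near the same level. *Col3a1* in the wild-type library was 3.28-fold against other kept cells and 0.981-fold against double-marker cells.

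Counts of genes past 2-fold moved with the pseudocount. With 1 and 50 CPM they were 2327 and 235 (840 with 10 CPM) against other kept cells, 741 and 51 (208) against the *Tbata*/*Cyp26b1*/*Smoc2* set, 919 and 169 (504) against *Myh11* cells and 265 and 5 (32) between the libraries. *Dpt*-led against *Lum*-led members gave 5 with 50 CPM (25), and *Aspn*-led members 40 and 5 (20). With at least 100 UMIs, these leading-gene counts were 5 and 4 and the count between the libraries 5. With cells thinned to 5000 UMIs they were 11, 13 and 64. With 5 or more *Lum*+*Dpt*+*Aspn* UMIs the *Dpt*-led count was 16. Against double-marker cells, chosen after seeing the data, 17 genes were past 2-fold in place of 840. Without the member with most UMIs of each gene, also chosen then, 25 genes differed between the libraries, 19 of them among the 32. Those 32 were 8 higher and 24 lower. The split was 16 and 30 with CPM outside ribosomal protein and mitochondrial genes. It was 14 and 32 with 5 or more marker UMIs and 24 and 40 with thinned cells.

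Scaling outside ribosomal protein and mitochondrial genes lowered the share of higher genes from 46.6% to 35.5% against the *Tbata*/*Cyp26b1*/*Smoc2* set. Against other kept cells, 231 genes were higher and 609 lower in the main setting. With the mean of single-cell CPM these were 131 and 481, and with cells thinned to 5000 UMIs 133 and 478.

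The share of members was 1.12% and 1.56% with at least 3000 genes, 2.62% and 2.89% at 2 marker UMIs, 1.64% and 1.80% at 5, 23.7% and 30.8% without the other limits and 3.95% and 4.94% after thinning. The cause was not tested. A gene with 0 UMIs in members may stand at up to 2.80 and 3.02 CPM.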
